A study of Mus musculus with 24 samples.

Results

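The regions described here are the Prrx1 binding sites found in mouse embryonic fibroblasts (MEF) and in neither of the other fibroblast types of the series. They were selected on the Prrx1 ChIP-seq lists themselves: the summits of the 3 wild-type (WT) lists were widened by 250 bp on each side and merged, and a merged site was kept when its summits all came from the MEF list. This gave 1473 MEF-only sites among 13405 merged sites, which is 48.4% of the 3042 sites with a MEF summit. Of the other MEF sites, 352 were shared with cancer-associated fibroblasts of the MMTV-PyMT mammary tumour model (MMTV-CAF), 684 with wound-healing fibroblasts and 533 with both. That a member lies far from any summit of the other types is therefore the rule and not a result, and the strength of the MEF summits is given as a description only.

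The series profiled H3K27ac and H3K4me3 in 7 cell populations and Prrx1 in the 3 WT populations, and a peak list was analysed for 17 of its 24 samples. MEF (strain C57BL/6) came from embryos at E10 to E13, wound-healing fibroblasts (C57BL/6) from dorsal wounds at day 10, and MMTV-CAF from tumours of FVB/NJ mice, so that fibroblast type and strain cannot be told apart in the MMTV-CAF lists. All cells, controls included, had been immortalised with HPV E6/E7. SG marks cells in which Prrx1 was deleted with a guide RNA and Cas9, for which the control cells carried the guide SgNS. KI was read as MEF of the 129S-Prrx1tm1Jfm/Mmmh mutant, which carries lacZ inside the Prrx1 homeodomain and which the study describes as backcrossed to C57BL6, a reading the labels do not spell out. Whether the SG cells were clones or pools is not given in the sources used here. Each group has 1 library, so each difference below is one between single lists, without a replicate check and without a p-value. Intervals are 95% intervals that cover counting error over sites only. How deeply the libraries were sequenced is unknown here. Among 8 fibroblast marker genes, 6 to 8 had an H3K4me3 region over a transcription start site (TSS) in each of the 7 populations. Of 8 epithelial and of 8 endothelial genes 0 or 1 did, and of 8 immune and 8 skeletal muscle genes none did.

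Prrx1 is a paired-related homeobox transcription factor of embryonic limb and craniofacial mesenchyme and of activated fibroblasts. Its homeodomain is of the class that reads short AT-rich words with a TAAT core, such as TAATTA, which is its own reverse complement. H3K27ac is deposited at active enhancers and promoters, and H3K4me3 mainly at the promoters of active genes. A transcription factor site with neither mark is one where binding was called outside chromatin marked as active in that cell population.

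The sequences of the strongest sites share a simple feature, which is why they are shown first. Below are the summit base and 50 bases to each side of it in mm9, plus strand, for 6 of the 7 MEF-only sites with the highest Prrx1 −log10 p. Capitals mark each TAATTA and each run of at least 8 bases of the 4-base repeat made of TTAA units, as found by a search from left to right in which a base that adjoining runs could share counts with the first. The sites are named after the nearest protein-coding gene.
4933415F23Rik site (chr1:23165186-23165286): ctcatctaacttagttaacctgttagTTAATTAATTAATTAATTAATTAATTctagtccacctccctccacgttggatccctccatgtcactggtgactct
Gm8894 site (chr14:56025266-56025366): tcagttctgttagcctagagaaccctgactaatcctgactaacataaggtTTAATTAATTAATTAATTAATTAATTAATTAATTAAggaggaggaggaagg
Lime1 site (chr2:181149130-181149230): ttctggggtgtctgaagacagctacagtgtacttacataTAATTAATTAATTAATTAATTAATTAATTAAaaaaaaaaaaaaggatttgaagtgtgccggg
Tcf3 site (chr10:79913043-79913143): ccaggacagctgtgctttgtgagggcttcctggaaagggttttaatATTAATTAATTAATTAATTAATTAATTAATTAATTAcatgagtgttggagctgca
Aplp2 site (chr9:31053566-31053666): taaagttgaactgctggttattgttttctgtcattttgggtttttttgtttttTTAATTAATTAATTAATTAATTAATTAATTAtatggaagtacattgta
Gm4340 site (chr10:104053685-104053785): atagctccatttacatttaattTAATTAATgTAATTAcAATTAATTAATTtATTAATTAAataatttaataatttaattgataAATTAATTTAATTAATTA

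The first 5 of these hold 1 unbroken tandem tract of 26 to 36 bases, and the Gm4340 site holds several shorter runs, the longest of 12 bases. Because TAATTA recurs every 4 bases in such a tract, 1 tract carries many overlapping copies of the homeodomain word. The Prrx1 −log10 p of the 6 sites was 34.0, 31.9, 31.4, 29.6, 28.7 and 26.5 in the order shown. The Lime1 site lies in an intron of Zbtb46 and the others are intergenic. The Tcf3 site is 16.7 kb from the TSS of that gene, which encodes an E-protein transcription factor, and the Aplp2 site is 34.2 kb from the TSS of a relative of the amyloid precursor protein. No H3K27ac summit lay within 500 bp of any of the 10 strongest sites in any of the 7 H3K27ac lists, and no H3K4me3 region overlapped their windows in any of the 7 H3K4me3 lists. Of those 10, 9 held a tract of 17 to 36 bases within 100 bp of the summit.

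The MEF-only sites with the strongest H3K27ac look different. The next sequences, from the same build and strand, are from the 3 members with the highest H3K27ac −log10 p in MEF WT (Dapk1, Nudt12 and Slc44a1), the next 2 that had no H3K27ac summit in KI (Plcb4 and Plekhh2) and the strongest that had none in SG (Rcc2). Capitals mark TTAA runs and TAATTA as above and also TGANTCA, the word bound by AP-1.
Dapk1 site (chr13:60557360-60557460): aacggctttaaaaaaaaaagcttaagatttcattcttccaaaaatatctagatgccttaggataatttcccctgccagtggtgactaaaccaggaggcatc
Nudt12 site (chr17:59215802-59215902): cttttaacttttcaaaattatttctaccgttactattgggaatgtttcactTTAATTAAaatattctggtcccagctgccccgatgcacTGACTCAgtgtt
Slc44a1 site (chr4:53422800-53422900): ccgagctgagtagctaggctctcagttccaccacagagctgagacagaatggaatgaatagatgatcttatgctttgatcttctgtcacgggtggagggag
Plcb4 site (chr2:135467580-135467680): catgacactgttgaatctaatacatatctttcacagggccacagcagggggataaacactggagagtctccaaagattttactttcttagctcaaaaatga
Plekhh2 site (chr17:84909869-84909969): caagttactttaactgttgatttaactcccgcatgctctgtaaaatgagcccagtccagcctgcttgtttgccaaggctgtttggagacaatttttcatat
Rcc2 site (chr4:140256961-140257061): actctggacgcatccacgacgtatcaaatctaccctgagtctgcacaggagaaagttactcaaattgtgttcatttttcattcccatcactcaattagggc

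None of these 6 windows held a tandem run longer than 8 bases, and only the Nudt12 site held TAATTA. Their Prrx1 −log10 p ran from 4.72 to 6.998. The 2 sets of sequences show the ends of a range that the counts over all members describe.

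The Prrx1 −log10 p of the 1473 sites ranged from 3.02 to 34.0 with a median of 7.43, and its quartiles were 5.85 and 9.71. Of them 302 (20.5%) had a value of at least 10 and 212 (14.4%) a value below 5, the cutoff that the study states for its summit lists. Sites shared with MMTV-CAF had the same median, 7.43, while the medians of sites shared with wound-healing fibroblasts and with both types were 11.6 and 11.3. The values are coarse: the 1473 members took 499 distinct values, and 111 of them (7.54%) had exactly 7.43. Of the members, 826 lay more than 50 kb from any summit of the other types and 25 lay within 1 kb of one. The 3 members nearest to the merging distance were 505, 506 and 551 bp from a summit of another type, with a Prrx1 −log10 p of 4.12, 6.72 and 13.3 in MEF. The 3 shared sites just on the other side were 489, 485 and 459 bp away, with 7.32, 3.29 and 5.45.

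TAATTA lay within 100 bp of the summit in 1042 MEF-only sites (70.7%, interval 68.4% to 73.0%). It was present in 7.27% of the positions 2 kb to either side of them and in 7.31% of 51164 windows of the same length spaced over the genome. Among 1412 words of 6 letters it had the highest ratio to the flanking positions, 9.74-fold. It was also close to the summit, within 25 bp in 43.2% of members, with a median distance of 19.5 bp among members that held it within 250 bp. The related word TAATTG, read as CAATTA on the other strand, was present in 28.2% of members and in 10.2% of the flanking positions.

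The share of TAATTA differed among the classes of MEF sites. It was 60.8% in sites shared with MMTV-CAF, 85.4% in sites shared with wound-healing fibroblasts and 49.7% in sites of all 3 types, so the MEF-only sites stood between the MMTV-CAF-shared and the wound-shared ones. The difference of the MEF-only sites from the MMTV-CAF-shared sites was 9.94 points (interval 4.45 to 15.6) and from the wound-shared sites -14.6 points (-18.1 to -11.0). At their own summits, sites found only in MMTV-CAF held the word in 33.9% and those found only in wound-healing fibroblasts in 35.2%.

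Much of this word content was tandem. A TTAA-unit tract of at least 16 bases, a length chosen after the sequences had been seen and therefore given without a test, lay within 100 bp of 432 members (29.3%). The flanking positions held one in 0.102% and the genome windows in 0.0371%. The share was 14.2% in sites shared with MMTV-CAF, 70.2% in sites shared with wound-healing fibroblasts and 19.9% in sites of all 3 types. Tracts at members had a median length of 22 bases, against 27 at sites shared with wound-healing fibroblasts. In the 1041 members without a tract, TAATTA was still present in 58.8%. In the 598 members with no TTAA run of 8 bases or more it was present in 29.4%, against 5.72% of flanking positions of the same kind.

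The spacing of paired TAAT half-sites followed the repeat. TAAT followed by its mirror ATTA after 2 bases was present in 44.1% of members, after 6 bases in 37.4% and after 10 bases in 30.9%. At 3, 4, 5, 7, 8 and 9 bases the share was between 4.14% and 5.57%. In members without a tract the shares at 2, 6 and 10 bases were 21.4%, 13.2% and 11.0%.

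The genome of mm9 held 3887 such tracts, and 1115 of them (28.7%) had a MEF Prrx1 summit within 100 bp. Up to 39 bases the share was higher for longer tracts. Of tracts of 16 to 19 bases 17.5% had a MEF summit (interval 15.9% to 19.3%), of those of 24 to 27 bases 44.6% (40.6% to 48.7%) and of those of 32 to 39 bases 64.6% (57.5% to 71.0%). The 30 tracts of 40 bases or more had one at 63.3% (45.5% to 78.1%), an interval that covers the share at 32 to 39 bases. The wound list behaved alike, from 12.3% to 74.1% over the same lengths, and had 86.7% (70.3% to 94.7%) at 40 bases or more. In the MMTV-CAF list the share was 5.81% for the shortest and 8.99% for tracts of 32 to 39 bases, although that list is the longest of the 3, and 0 of the 30 longest had a summit (interval 0% to 11.4%). MEF-only sites took 8.61% of the tracts of 16 to 19 bases, 18.5% of those of 24 to 27 bases, 8.99% of those of 32 to 39 bases and 2 of the 30 longest, so most MEF summits at tracts of 32 bases or more lay at shared sites.

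**Figure D1:**
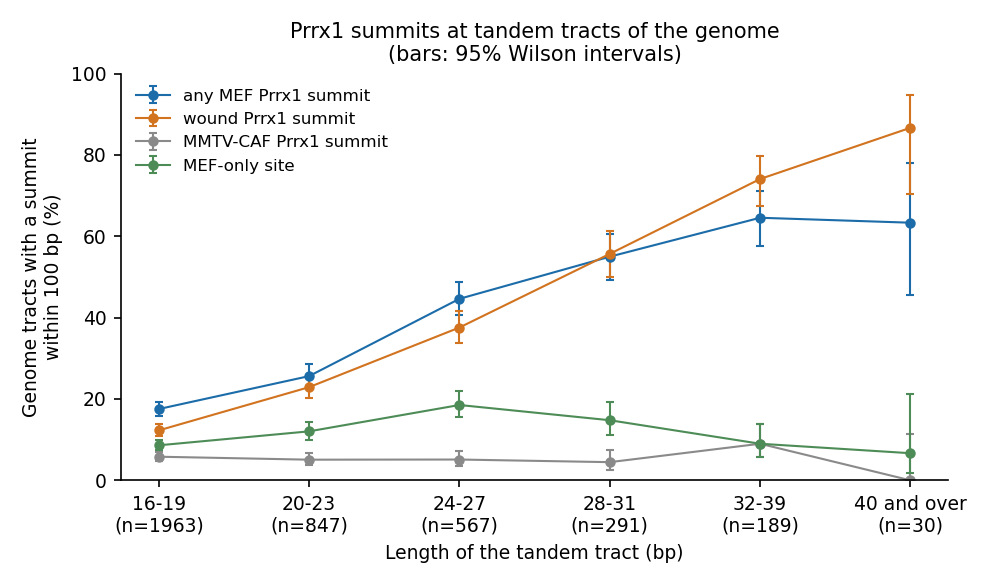
Share of the tandem tracts of the genome with a Prrx1 summit within 100 bp (y axis, percent) by tract length in bp (x axis, number of tracts in brackets), for any MEF summit, wound and MMTV-CAF summits and MEF-only sites, with 95% Wilson intervals as bars. The MEF share goes from 17.5% at 16 to 19 bp to 64.6% at 32 to 39 bp, the MEF-only share is highest, at 18.5%, for 24 to 27 bp, and the MMTV-CAF share stays below 10%.

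Of 7 other words compared, 3 were less frequent in the MEF-only sites than in the shared ones by an interval that leaves out 0. The AP-1 word TGANTCA was present in 10.1% of members and in 15.6% of shared sites, a difference of -5.44 points (interval -7.80 to -3.06). The E-box CAGATG, of the kind read by basic helix-loop-helix factors, was present in 18.1% and 25.3%, a difference of -7.24 points (-10.1 to -4.32). A second E-box, CAGCTG, was present in 8.35% and 11.3%, a difference of -2.93 points (-5.04 to -0.813). For the TEAD word GGAATG, the SMAD word CAGACA, the RUNX word TGTGGT and the C/EBP word TTGCNNAA the differences were between -1.12 and 1.13 points, with intervals that include 0. Within the shared sites those of MEF and wound had TGANTCA in 9.795% and CAGATG in 15.9%, and the differences from the members, 0.32 and 2.12 points, had intervals that include 0. In the flanks of the members TGANTCA and CAGATG were at 6.86% and 14.7%. The 431 members without TAATTA had, as the word with the highest ratio to their flanks, CAATTA (29.5% against 10.1%). The list went on with AATTGG at 18.8% against 7.66%, and GACTCA and CAGATG were also among its 10 highest, at 18.6% and 27.1% against 8.82% and 13.1%.

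Across the range of Prrx1 strength, word content and H3K27ac went in opposite directions. Members with a Prrx1 −log10 p of 3 to 5 held TAATTA in 50.0% and a tandem tract in 5.19%, and 22.6% of them had an H3K27ac summit within 500 bp in MEF WT. In the 64 members at 15 and over, the 3 shares were 89.1%, 71.9% and 4.69%. Shared sites had the same order for the word and the tract, and more H3K27ac in each bin. The difference in H3K27ac between members and shared sites was -19.04 points at 5 to 7.5 (interval -24.97 to -13.2), -21.9 at 7.5 to 10 (-27.7 to -16.0) and -14.5 at 15 and over (-19.4 to -5.57). At 3 to 5 it was -8.82 points with an interval from -20.3 to 1.81, which includes 0.

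**Figure D2:**
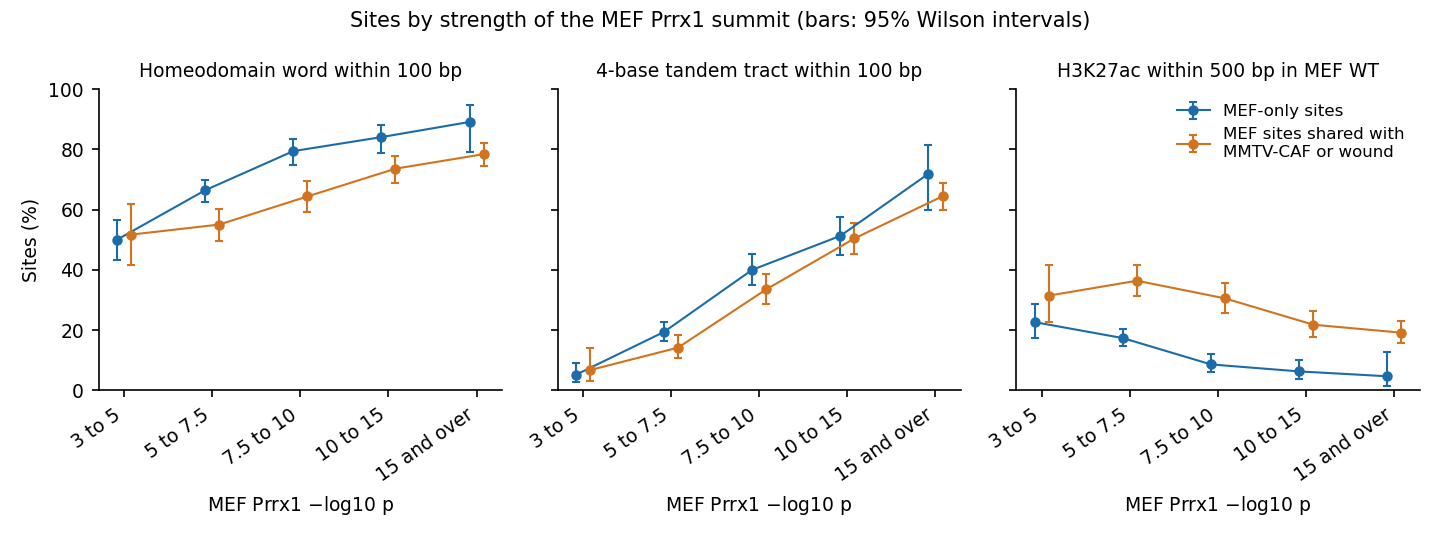
Share of sites (y axis, percent) with the homeodomain word, with a tandem tract and with an H3K27ac summit in MEF WT, by −log10 p of the MEF Prrx1 summit (x axis, 5 bins), for MEF-only and shared MEF sites, with 95% Wilson intervals as bars. In MEF-only sites the word goes from 50.0% to 89.1% and the tract from 5.19% to 71.9%, while H3K27ac goes from 22.6% to 4.69%.

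Within the MEF-only sites the tract and the mark were seldom found together. Of the 432 members with a tract 5 (1.16%, interval 0.495% to 2.68%) had an H3K27ac summit in MEF WT, and of the 1041 without one 199 did (19.1%, 16.8% to 21.6%). Read the other way, TAATTA was present in 35.3% of the 204 members with H3K27ac and in 76.4% of the 1269 without it. The AP-1 word was present in 25.5% and 7.64% of the same sets, GGAATG, the word read by TEAD factors, in 25% and 10.3%, and CAGATG in 27.5% and 16.5%. The median Prrx1 −log10 p of the marked members was 6.02, and their median GC content was 41.8% against 39.3% in the unmarked ones.

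The marks over all members were sparse. In MEF WT an H3K27ac summit lay within 500 bp of 204 members (13.8%, interval 12.2% to 15.7%), against 417 of the 1569 shared sites (26.6%, 24.5% to 28.8%), a difference of -12.7 points (-15.5 to -9.90). With summits within 250 bp the members' share was 6.72% and the difference -4.88 points (-6.92 to -2.84), and with H3K27ac lists of equal size the share was 8.42%. Positions 10 kb to either side of the members had one in 3.22%. Within quartiles of the Prrx1 −log10 p of all MEF sites the difference was -16.7, -22.5, -16.9 and -12.4 points from the weakest to the strongest. Among the shared classes H3K27ac was not uniformly higher, since that of sites shared with wound-healing fibroblasts was 8.92%.

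An H3K4me3 region in MEF WT overlapped the window of 250 bp on each side of the summit of 95 members (6.45%, interval 5.30% to 7.82%) and of 191 shared sites (12.2%). The members' share was 2.85% with regions of a −log10 p of at least 10 and 3.67% with H3K4me3 lists of equal size. As with H3K27ac, the sites shared with wound-healing fibroblasts were lower than the members, at 3.36%, a difference of 3.09 points (1.09 to 4.85). Of the members, 35 had both marks in MEF WT, 169 H3K27ac alone, 60 H3K4me3 alone and 1209 (82.1%) neither. Over all 14 histone lists, 1103 members (74.9%) had neither mark in any list, 13 had H3K27ac in all 7 lists and 28 had H3K4me3 in all 7.

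The other lists gave lower H3K27ac shares for the members than MEF WT did. They were 4.89% for KI and 8.35% for SG. In MMTV-CAF the WT list gave 7.13% and the SG list 8.01%. For the wound lists these values were 3.19% and 7.67%. Each was above the share 10 kb away, which ran from 1.46% to 3.09%, and below the share in all shared sites of the same list, which ran from 14.9% to 24.1%. Sites shared by MEF and wound alone were lower than the members, at 4.68% for KI, 5.56% for SG, and 5.12% (WT) and 5.99% (SG) for MMTV-CAF. In the wound lists they had 3.65% (WT), above the members, and 6.87% (SG), below them. Of these differences only that in MEF SG had an interval that leaves out 0. For H3K4me3 the members' shares were 4.07% for KI and 4.28% for SG. They were 6.25% (WT) and 8.83% (SG) for MMTV-CAF, and 2.72% (WT) and 4.62% (SG) for wound-healing fibroblasts. The list with the highest H3K4me3 share was thus MMTV-CAF SG, which also has the most regions, 29166 against 16089 in MEF WT.

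**Figure D3:**
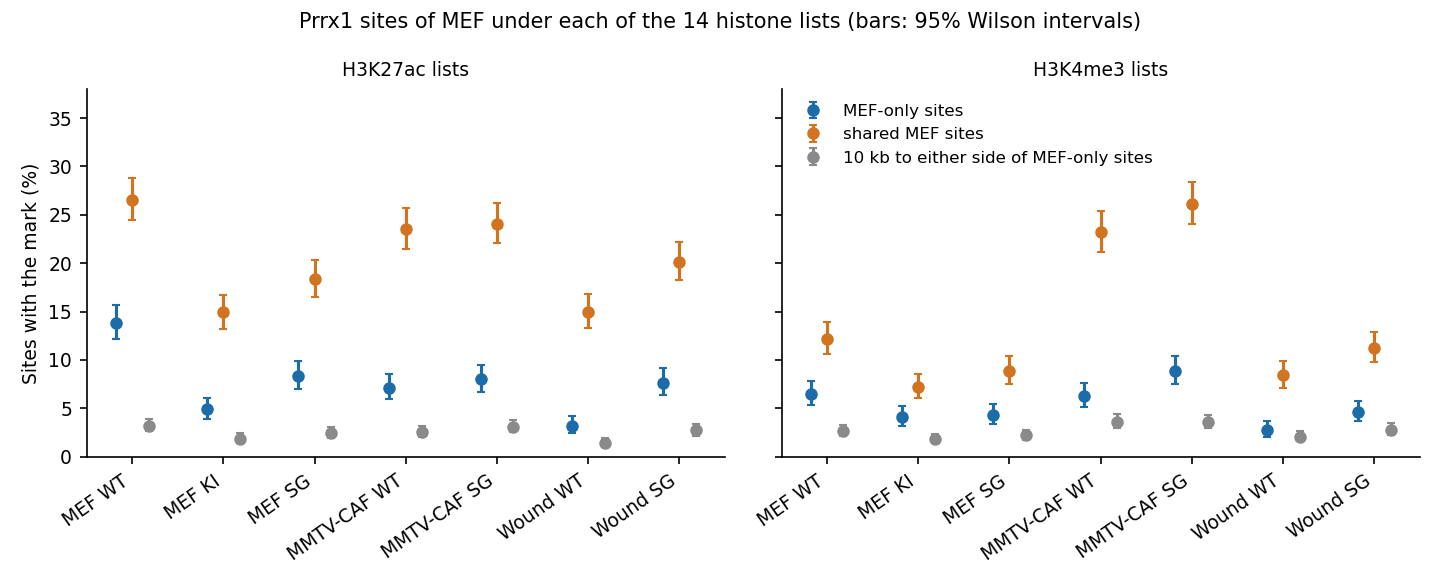
Share of sites (y axis, percent) with an H3K27ac summit within 500 bp (left) or under an H3K4me3 region (right) in each of the 14 histone lists (x axis), for MEF-only sites, shared MEF sites and positions 10 kb to either side of the MEF-only sites, with 95% Wilson intervals as bars. MEF-only sites have their highest H3K27ac share, 13.8%, in MEF WT and lie below the shared sites in every list.

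Super-enhancers were approximated by stitching neighbouring H3K27ac summits and ranking the clusters by summed −log10 p. In MEF WT 78 members (5.30%) lay within 250 bp of one of 1330 such clusters, which cover 1.04% of the genome, and 177 (12.02%) lay in another cluster. For shared sites the numbers were 156 (9.94%) and 324 (20.7%). In KI, with 669 super-enhancers, 27 members lay in one, and in SG, with 1251, 39 did. These clusters cover 0.472% of the genome for KI and 1.08% for SG, and they held 79 and 97 of the shared sites.

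The MEF-only sites were mostly far from genes' starts. Of them 22 (1.49%, interval 0.988% to 2.25%) lay within 1 kb of the TSS of a protein-coding gene, against 97 shared sites (6.18%), a difference of -4.69 points (-6.09 to -3.36). The median distance to a TSS was 44.7 kb in members and 33.7 kb in shared sites, and 494 members (33.5%) were more than 100 kb away. By annotation 830 members were intergenic, 620 intronic, 12 in a UTR and 11 in another exon part. Intergenic and intronic shares differed from those of the shared sites by 1.54 and -0.739 points, with intervals that include 0.

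The members at a TSS with the highest Prrx1 −log10 p included Isy1, which encodes a pre-mRNA splicing factor. Its site at chr6:87789188-87789688 lay 685 bp from the TSS, held a tract of 18 bases and had a Prrx1 −log10 p of 13.3. Its H3K27ac −log10 p was 31.7 in MEF WT, 11.5 in KI, 34.5 in SG, 30.4 in wound WT and 36.8 in wound SG, with no summit in either MMTV-CAF list. H3K4me3 was present there in all 7 lists, as it was at Yme1l1, a gene for a mitochondrial protease, and at Pcgf5, which encodes a Polycomb subunit. The strongest of the 22, beside the predicted gene Gm10222 with a Prrx1 −log10 p of 16.1, was under neither mark in any list, and so were those at Cwc22, 4933412E24Rik and Gm4840. At Lig1, the gene of a replicative DNA ligase, the sole mark was an H3K4me3 region of 3235 bp in MMTV-CAF WT.

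The nearest of all members to a TSS lay 3 bp from that of Sema3a, which encodes a secreted guidance protein, at chr5:13398441-13398941, in its annotated UTR. Its Prrx1 −log10 p was 3.16, near the lowest of the list. H3K4me3 regions covered it in all 7 lists, with widths in MEF of 3313 bp (WT), 4767 bp (KI) and 5818 bp (SG). In MMTV-CAF the width was 2406 bp for WT and 4740 bp for SG, and for the wound lists 2803 bp and 5601 bp. An H3K27ac summit lay within 500 bp in KI (−log10 p 31.7) and in both MMTV-CAF lists (7.43 in WT, 31.01 in SG) but in neither MEF WT, MEF SG nor the wound lists. Each of the 3 SG lists held a wider H3K4me3 region than its WT list at this TSS.

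The genes nearest to the members were counted over 22232 protein-coding genes, of which 1116 (5.02%) were the nearest to at least 1 member. The genes with most members were Gm15319 (14 members), Gm3395, Gm1840, Cdh8 and Il15 (10 each), Inpp4b (9), 4930467E23Rik and Gm8730 (8 each), Cdh11 (7) and Flrt3 (5). Of these, 8 are on chromosome 8, Gm3395 is on chromosome Y and Flrt3, which encodes an adhesion protein, is on chromosome 2. The last place was tied, since at least Gm6420 on chromosome 1 also had 5 members. Cdh8 and Cdh11 encode cadherins, Cdh11 being the one typical of mesenchymal cells, and Il15 encodes a cytokine. None of the 10 sites of Cdh8 or the 7 of Cdh11 had an H3K27ac summit in MEF WT, and 4 and 1 of them held a tandem tract.

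Gene lists relevant to Prrx1 biology were read against that background and against the length of genome nearest to each gene, since genes in wide intergenic spaces collect more sites. Over the genome there were 0.555 members per Mb. Of 54 limb and mesenchyme transcription factors, 11 (20.4%) were nearest to a member, with 0.914 members per Mb, and 8 (14.8%) had a member within 50 kb, against 5.38% of all genes. Of 30 axon guidance genes, 11 (36.7%) were nearest to a member, with 0.904 per Mb, and 5 (16.7%) had one within 50 kb. Of the 22 members of this list, 4 were at Efnb2 and 1 at Nrp1, both on chromosome 8. Of 40 extracellular matrix genes 5 and of 31 skeletal and tendon genes 4 were nearest to a member, at 0.758 and 0.568 per Mb. Of 26 genes of the TGF-beta pathway 3 were, at 0.808 per Mb. Within 50 kb of a member were 4 of the extracellular matrix genes (10%), 5 of the contractile and adhesion genes (17.9%) and 3 of the 39 Hox genes (7.69%), but 0 of the skeletal and tendon genes and 0 of those of the TGF-beta pathway. The 28 contractile and adhesion genes had 2.05 per Mb, with 7 of their 11 members at Cdh11 on chromosome 8, and none of the 39 Hox genes was nearest to a member. Among the cell type markers, the 8 endothelial genes had 2.62 per Mb, with 5 members near 1 gene. The 8 fibroblast genes had 2.27 per Mb from 3 members. The epithelial, immune and skeletal muscle markers had 0. The densities rest on few members and are given without intervals.

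Within these lists the genes with at least 3 members were Cdh11, Efnb2, Foxp1, Nrp2, Sema3a, Tgfbr2 and Zeb2. The 7 members at Cdh11 and the 4 at Efnb2, a transmembrane ephrin, had no H3K27ac or H3K4me3 in any list, and those of Efnb2 were 584 to 1186 kb from its TSS. The 3 members nearest to Nrp2, a semaphorin co-receptor, were also unmarked in every list, and 2 of them lie in introns of Pard3b. Foxp1, a forkhead transcription factor, had 1 member marked in MEF, at chr6:98747383-98747883 and 231 kb from the TSS, and a second with an H3K27ac summit (10.9) in MMTV-CAF SG alone. At the first of these members the H3K27ac −log10 p was 49.5 in WT MEF, 13.7 with KI and 25.2 with SG. MMTV-CAF had 21.2 (WT) and 35.1 (SG), and the wound lists had 12.3 with SG and no summit with WT. At Zeb2, which encodes a transcription factor of mesenchymal transition, 1 of 3 members had H3K27ac in MEF WT (13.6) and none in KI or SG. The same member had a summit of 12.4 for MMTV-CAF SG and none in the other MMTV-CAF list or the wound lists. It lay under an H3K4me3 region of 722 bp in MEF WT and of 1191 bp in MMTV-CAF SG, and under none in the other 5 lists.

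Of the 3 members nearest to Tgfbr2, the type II TGF-beta receptor, the one at chr9:116220179-116220679 had an H3K27ac −log10 p of 9.23 in MEF WT, 14.5 in KI, 14.1 in SG, 11.6 in MMTV-CAF WT and 16.1 in wound SG. It was thus marked in all 3 MEF lists, and the second had a summit in KI (9.86) and wound SG (14.2). Prrx1 itself had 1 MEF-only site, at chr1:165231187-165231687 in an intron 12.1 kb from its TSS, with a Prrx1 −log10 p of 11.3 and the word TAATTA. No MEF or wound list had either mark there. In MMTV-CAF the H3K27ac −log10 p was 16.3 in WT and 34.99 in SG, and the H3K4me3 region over the site was 2335 bp wide in WT and 15484 bp in SG. The marks at this site were thus in a fibroblast type in whose list Prrx1 had no summit there.

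Chromosome 8 held 253 members (17.2%, interval 15.3% to 19.2%) on 4.96% of the bases, or 1.92 per Mb against a median of 0.522 per Mb over the chromosomes. Of its 253 members 218 had no tandem tract. Their median Prrx1 −log10 p was 6.72, their H3K27ac share in MEF WT was 8.70% and their share with TAATTA 63.6%. The share on chromosome 8 was 17.2% also for sites found only in wound-healing fibroblasts and 12.9% for sites shared by MEF and wound, but 3.13% for sites shared by MEF and MMTV-CAF and 3.38% for sites found only in MMTV-CAF. In the H3K27ac lists it was between 5.36% and 6.44%. The members were spread along the chromosome, with 2 to 48 in each stretch of 10 Mb, most between 80 and 120 Mb. Chromosome X held 15 members (1.02%), or 0.0900 per Mb, and its share of the H3K27ac summits of MEF WT was 2.66%. The part of the number of copies of a chromosome in these counts was not tested.

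Some members formed runs. There were 56 runs of closely spaced members, holding 138 members. The run with most members, on chromosome 8 from 19919370 to 19950713, had 8 members in 31.3 kb near the predicted gene Gm15319, and a second, from 19743055 to 19770033, had 4 near 4930467E23Rik. On chromosome Y 7 members lay between 2854381 and 2894494, and the chromosome held 10 members in all. The MMTV-CAF and wound Prrx1 lists had no summit on chromosome Y, and the MMTV-CAF lists of either histone mark had none there either. On chromosome 4 there was a run of 4 near Gm13212, and the shortest run of 3 spanned 1.74 kb near Eya1, a coactivator of organ development. In the 4 runs of at least 4 members no member had a tandem tract or H3K27ac in MEF WT, and 4 of their 23 members held TAATTA.

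**Figure D4:**
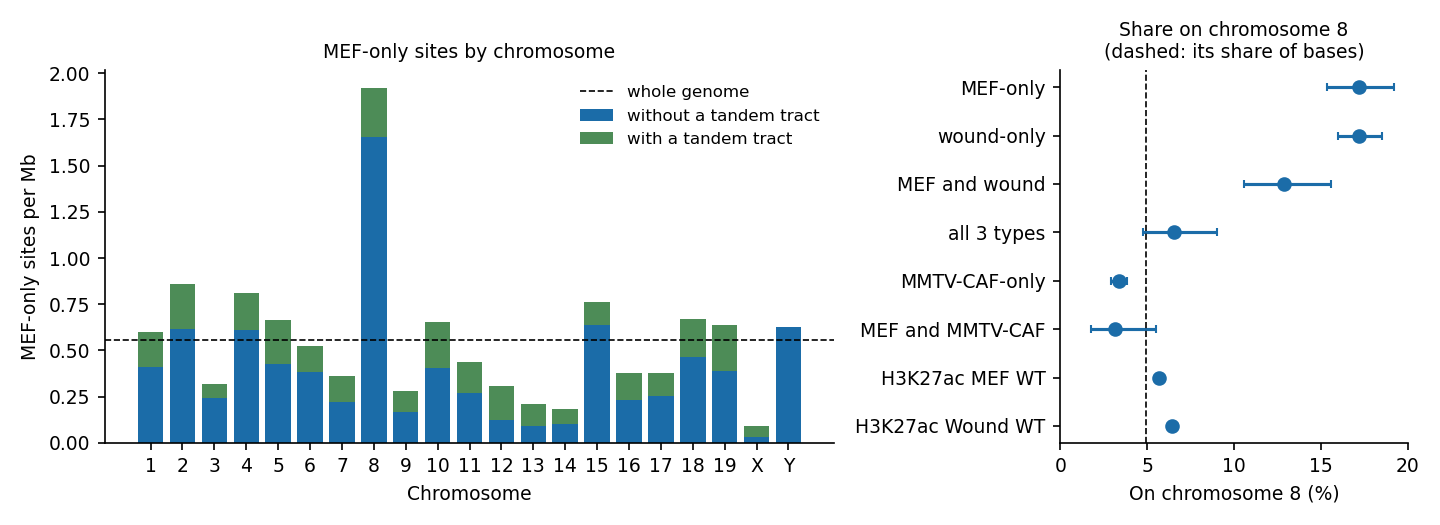
Left, MEF-only sites per Mb (y axis) by chromosome (x axis), split into sites without and with a tandem tract, with the whole-genome value of 0.555 as a dashed line; right, the percentage of each set of sites or H3K27ac summits on chromosome 8 (x axis), with 95% Wilson intervals as bars and the 4.96% of bases on it as a dashed line. Chromosome 8 reaches 1.92 per Mb, and the sets of MEF-only and of wound-only sites both have 17.2% of their sites there.

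For the change in KI and SG the unit was the H3K27ac summit of MEF WT. A summit was called absent when the other list had none within 500 bp, which depends on the strength of both lists. Of all 44918 MEF WT summits 55.7% were absent in KI and 31.8% in SG by this rule. Of the 225 summits within 500 bp of a MEF-only site, 164 were absent in KI (72.9%, interval 66.7% to 78.3%) and 125 in SG (55.6%, 49.02% to 61.9%). The difference from all summits was 17.2 points in KI (11.0 to 22.6) and 23.8 points in SG (17.2 to 30.1). With MEF sites of a Prrx1 −log10 p of at least 10 alone, which left 21 such summits, the difference was 11.0 points in KI, with an interval that included 0 (-10.3 to 27.1), and 20.6 points in SG (0.596 to 39.9). Both comparisons use the same MEF WT list. For summits near shared MEF sites the shares were 56.5% in KI and 43.3% in SG.

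The summits near members were weaker than average, with a median −log10 p of 14.8 against 18.5. All summits at the same deciles of strength would have been absent in 60.8% in KI and 35.4% in SG, which leaves 12.1 and 20.1 points. In the weakest quartile of WT summits the shares in KI were 85.9% near members and 84.0% of all, and in the third quartile 75% and 48.97%. In SG they were 83.1% and 57.5% in the weakest quartile and 10.0% and 10.2% in the strongest, so no difference was detectable there among 40 summits near members.

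The same summits were also more often absent from the WT lists of the other fibroblast types. The members were chosen for having no Prrx1 summit in those types, so these comparisons are not independent of the selection rule. They were absent in 63.6% in MMTV-CAF WT (all summits 36.7%) and in 85.3% in wound WT (48.2%). The differences were 26.8 points (interval 20.3 to 32.8) and 37.2 points (31.9 to 41.2), and these comparisons use the same MEF WT list as well. Whether the differences in KI and SG are linked to Prrx1 binding was not tested.

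**Figure D5:**
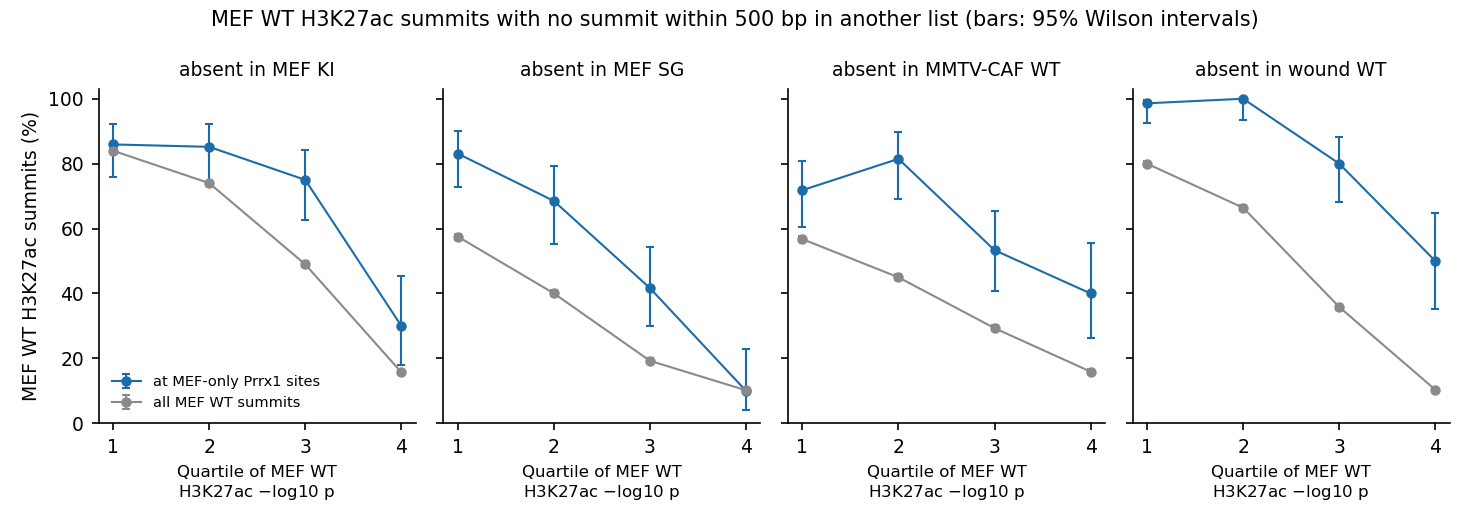
Share of MEF WT H3K27ac summits (y axis, percent) with no summit within 500 bp in MEF KI, MEF SG, MMTV-CAF WT and wound WT, by quartile of their MEF WT −log10 p (x axis, 1 the weakest), for summits near MEF-only Prrx1 sites and for all summits, with 95% Wilson intervals as bars. Near MEF-only sites 85.9% are absent in KI in the weakest quartile and 30% in the strongest, and the points near MEF-only sites also lie above those of all summits in both other WT lists.

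Counted over sites, 204 members had H3K27ac in MEF WT, while KI had 72 such members and SG 123. For the shared sites these numbers were 417, 234 and 288, and the whole H3K27ac lists held 44918, 29325 and 43019 summits. In KI 55 of the 204 were still marked and 17 others were marked, and in SG 89 were still marked and 34 others were. Among 95 H3K27ac sites of the 7 lists that lay near a member and lacked a MEF WT summit, 18 (18.9%, interval 12.3% to 27.97%) held a summit in KI and 27 (28.4%, 20.3% to 38.2%) in SG. Of all 59943 such sites 12.4% held one in KI and 18.6% in SG. The differences were 6.55 points (-0.0639 to 15.6) and 9.84 points (1.74 to 19.6). The interval includes 0 in KI and lies above it in SG.

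For H3K4me3, 94 MEF WT regions overlapped a member's window. Of them 55 (58.5%, interval 48.4% to 67.9%) had an overlapping region in KI and 63 (67.02%, 57.01% to 75.7%) had one in SG, against 73.7% and 87.5% of all 16089 regions. The differences were -15.2 points (-25.3 to -5.70) and -20.5 points (-30.5 to -11.8), again from the same WT list. These regions were narrower and weaker than average, with a median width of 901.5 bp against 1720 bp and a median −log10 p of 8.58 against 28.6. No adjustment for width or strength was made for H3K4me3.

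Single sites show the range. The Dapk1 site, 146 kb from the TSS of a death-associated kinase gene, had the highest H3K27ac −log10 p of the members in MEF WT, 91.9. It was 83.6 in SG and 29.97 in wound SG, with no summit in KI, in wound WT or in MMTV-CAF. The Plcb4 site, near a phospholipase C gene, had 67.2 in MEF WT and no summit in KI or SG, but 22.6 (WT) and 17.6 (SG) for MMTV-CAF and 25.7 in wound SG. The Plekhh2 site had 63.3 in MEF WT and 37.8 in SG and none in KI. At Rcc2, a regulator of chromosome condensation, the site 377 bp from the TSS had 77.5 in MEF WT and 25.8 in KI and no summit within 500 bp in SG, while it was marked in all 4 lists of the other types, at 41.9 to 66.3. An H3K4me3 region of 4555 bp still covered it in SG, against 4143 bp in WT.

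A pair of members in an intron of Tll1, which encodes a tolloid-like metalloproteinase, lay less than 1 kb apart on chromosome 8. They shared 1 H3K27ac summit, with a −log10 p of 37.96 in MEF WT and none in any other list. In the other direction, the site in an intron of Stag3, a meiotic cohesin gene, 865 bp from its TSS, had no summit in MEF WT, 86.6 in SG and 90.7 in wound SG. A site in an intron of Cubn had a value of 33.9 with KI and 67.4 with SG and no MEF WT summit. A site in an intron of Eya1 likewise had 16.6 with KI and 62.2 with SG and no MEF WT summit. At Stag3 and Eya1 an H3K4me3 region was present in MEF WT all the same, of 3603 and 4312 bp, and a site in an intron of Chd2, a chromatin remodeller, lay under one of 6884 bp.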

How the data were processed

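MEF, MMTV-CAF and wound-healing fibroblasts were profiled by ChIP-seq for H3K27ac, H3K4me3 and Prrx1. According to the methods, the authors used Trimmomatic for trimming, Bowtie for alignment against mm9 and MACS2 for peak calling. The deposited H3K27ac and Prrx1 lists give summits of 1 base with a −log10 p-value, and the deposited H3K4me3 lists give broad regions with a fold enrichment ratio, a −log10 p-value and a −log10 q-value. Whether duplicate Prrx1 libraries were pooled is not given in the sources used here. The Prrx1 lists reach −log10 p values of about 3, below the stated cutoff of 5. The 7 input libraries are not analysed here.

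Summits were merged within 500 bp. H3K27ac was counted within 500 bp of the summit, H3K4me3 over the 501-bp window and sequence words on both strands within 100 bp. The homeodomain words TAATTA and TAATTG were searched, as were the AP-1 word TGANTCA, the TEAD word GGAATG, the SMAD word CAGACA, the RUNX word TGTGGT, the C/EBP word TTGCNNAA, the E-boxes CAGATG and also CAGCTG, and tandem tracts of at least 16 bases. H3K27ac clusters and runs of members were stitched over 12.5 kb. Genes were protein-coding genes of GENCODE on mm9. Scripts used Python 3.11.15, numpy 2.4.6, pandas 2.3.3 and pysam 0.24.0, were tested on simulated data, and gave Wilson intervals for shares and Newcombe intervals for differences. With 1 list per group no test was run. Sites were named by fixed rules: the 10 with the highest Prrx1 −log10 p, the 10 strongest within 1 kb of a TSS, the 10 with the strongest H3K27ac, the 10 genes nearest to most sites, the 5 runs with most members (shorter span first), the 5 strongest present in WT or in KI or SG alone, and every site of a listed gene with at least 3 sites or of Prrx1. Of these the text describes a selection, and the sequences printed leave out chromosome 18. The members, gene lists and rules were chosen with earlier results of these data known.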

Additional observations from a re-analysis of the deposited data

Results flagged for a closer look

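With a Prrx1-deleted list set against its WT list, the number of MEF-only sites with each histone mark was lower in MEF and higher in the other types. The whole lists moved in the same directions. The difference between the types was not tested, and each value compares single lists. For H3K27ac the log2 ratio of marked sites, deleted against WT, was -1.50 for MEF KI and -0.73 for MEF SG. For MMTV-CAF SG it was 0.17, and for wound SG 1.27. The whole H3K27ac lists had log2 ratios of -0.62, -0.06, 0.19 and 0.36 in the same order. In MMTV-CAF the H3K27ac ratio at the sites was thus no higher than that of the whole list. For H3K4me3 the ratios at the MEF-only sites were -0.66 and -0.59 for KI and SG in MEF, 0.50 for SG in MMTV-CAF and 0.77 for SG in wound-healing fibroblasts, beside -0.29, -0.13, 0.09 and 0.21 for the whole lists. In MEF both deleted lists use the same WT list. The part of list length in these ratios was not tested. The sites were chosen for a Prrx1 summit in MEF WT and none in the other WT lists, and the part of that rule was not tested either.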

How the results depend on the processing

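Of 100 values under 17 alternatives, 68 shares and differences stayed within the interval of the reported value, 6 numbers of sites stayed within 1.5 times the reported one, 26 values moved further and 0 changed direction. With a MEF Prrx1 −log10 p of at least 10 there were 302 MEF-only sites, with H3K27ac in 5.96%, H3K4me3 in 4.97% and TAATTA in 85.1%, and 66.7% of 21 H3K27ac summits were absent in KI, a difference of 11.0 points whose interval (-10.3 to 27.1) includes 0. The share with H3K27ac was 6.72% within 250 bp, 19.3% within 1 kb, 10.9% at a −log10 p of at least 10, 8.42% with H3K27ac lists of equal size and 15.7% with Prrx1 lists of equal size. Its difference from shared sites was -4.88 points within 250 bp and -17.6 within 1 kb. The share under H3K4me3 was 2.85% at a −log10 p of at least 10, 5.30% over the summit base and 3.67% with lists of equal size. With all annotated genes 2.65% lay within 1 kb of a TSS. TAATTA was present in 74.1% with a −log10 p of at least 5 in all Prrx1 lists, 55.7% within 50 bp and 79.8% within 250 bp. Absence in KI was 62.0% within 1 kb, 78.5% at a −log10 p of at least 10 and 64.3% with lists of equal size, where the difference was 22.8 points. Absence in SG was 63.6% within 250 bp and 41.9% within 1 kb. Leaving out chromosome 8 or Y, chosen after seeing the data, left 1220 and 1463 sites. Each group has 1 list, and no analysis of WT and SG lists paired by fibroblast type was run. Depth is unknown, and an absent summit may lie just under a list's threshold.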
